A study of Mus musculus with 34 samples.

Results

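Complement genes were followed in mouse thoracic spinal cord after contusion, in animals with and without the truncated neurotrophin receptor trkB.T1. The set was C1qa, C1qb, C1qc, C3, C4b, C3ar1, C5ar1, Cfb and Serping1, 9 listed genes, and every probe set carrying one of these symbols in the platform table was taken. Of them, 7 had probe sets of their own. C4b was read by the probe set 1418021_at, which the platform assigns to both C4a and C4b, so these near copies cannot be told apart. C3 was not analysed here, because the platform table used here attaches its symbol to no probe set. That left 8 genes of 18194 named on the array, with 13 probe sets. Of the 13 probe sets, 11 passed the filter on low values, which asked for 4 or more arrays with a log2 signal no lower than 4. These 11 stood for 7 genes. The exceptions were the only Cfb probe set and 1 of the 2 C5ar1 probe sets, which are given as values without a test. The leading probe sets of C3ar1 and C5ar1 read at most 3.82 and 2.32 in sham, so they passed only through injured arrays. Their rise over sham was thus partly built into their being tested.

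The arrays came from trkB.T1 KO and trkB.T1 WT mice on the C57BL/6J strain, backcrossed for more than 20 generations and 8 to 12 weeks old. There were 4 KO and 4 WT sham arrays, 4 KO and 5 WT arrays at day 1 after a moderate contusion, 5 KO and 4 WT at day 3, and 4 KO and 4 WT at day 7. The KO lacks trkB.T1, the truncated form of the BDNF receptor TrkB that astrocytes express in quantity, and the labels give neither the construct nor the sex of the animals. The labels call the arrays biological replicates, without saying whether animals were pooled, and p-values measure the spread between these arrays. The control arrays have sham as title and source, but the codes given in their descriptions start with Nav. Whether the control animals had sham surgery is thus not certain, and every difference from sham given below rests on them.

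Complement is a cascade of plasma and tissue proteins that tags debris, synapses and microbes for removal. C1q, built from the products of C1qa, C1qb and C1qc, starts the classical pathway, C4 and C3 are deposited on the target, and the released fragments C3a and C5a call in leukocytes through C3ar1 and C5ar1. Factor B (Cfb) amplifies the cascade through the alternative pathway, and Serping1, the C1 inhibitor, restrains its first proteases. In the central nervous system C1q is made mainly by microglia and macrophages, and C4 mainly by glia.

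Promoter windows were available in the RefSeq table (GRCm38.p6, 250 bases before the annotated start) for 5 of the 9 listed genes, and those of the 4 measured here are shown because they contrast genes that moved together with receptors that did not. C1qb and C1qc lie beside each other on chromosome 4, followed by C1qa, in that order between Ephb2 and Epha8. Capitals mark matches to 5 motifs searched on both strands, and all 4 sequences read 5′ to 3′ on the minus strand of the build, in the direction of the gene.
C1qb, chr4:136886201-136886450: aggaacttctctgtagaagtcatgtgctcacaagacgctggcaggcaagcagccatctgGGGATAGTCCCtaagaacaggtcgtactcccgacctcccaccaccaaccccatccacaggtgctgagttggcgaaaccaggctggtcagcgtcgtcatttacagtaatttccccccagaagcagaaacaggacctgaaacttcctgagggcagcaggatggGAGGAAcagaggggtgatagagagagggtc
C1qc, chr4:136892915-136893164: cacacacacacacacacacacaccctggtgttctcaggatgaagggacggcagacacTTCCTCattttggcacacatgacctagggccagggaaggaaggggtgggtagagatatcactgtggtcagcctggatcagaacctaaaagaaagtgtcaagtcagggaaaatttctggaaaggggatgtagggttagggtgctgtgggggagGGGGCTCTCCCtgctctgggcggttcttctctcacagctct
C3ar1, chr6:122856158-122856407: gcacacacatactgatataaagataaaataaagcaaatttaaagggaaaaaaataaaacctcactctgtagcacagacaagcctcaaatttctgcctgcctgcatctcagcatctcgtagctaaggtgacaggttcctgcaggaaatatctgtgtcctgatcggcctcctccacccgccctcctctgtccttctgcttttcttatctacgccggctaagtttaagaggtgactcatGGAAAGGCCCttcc
C5ar1, chr7:16259339-16259588: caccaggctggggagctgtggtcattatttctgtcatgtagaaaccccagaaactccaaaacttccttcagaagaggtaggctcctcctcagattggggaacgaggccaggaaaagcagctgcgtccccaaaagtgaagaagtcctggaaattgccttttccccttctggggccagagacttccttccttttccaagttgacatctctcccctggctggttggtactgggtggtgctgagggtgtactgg
GAGGAA, the core bound by the myeloid factor PU.1, was found 30 bases before the start of C1qb, and on the opposite strand (TTCCTC) 193 bases before the start of C1qc. It occurs in 23.3% of 32851 promoter windows. A loose frame of the NF-kB site (GGG and CC separated by 5 bases) was found in C1qb, C1qc and C3ar1 and occurs in 45.8% of windows, with overlapping matches on both strands in both C1q genes. TTCNNNGAA (a STAT site, 7.02% of windows), the interferon-stimulated response element (GAAA repeated after 2 bases, 2.98%) and TTGCNNAA (a C/EBP site, 9.56%) matched none of the 4, and C5ar1 held none of the 5 motifs in its window. A match describes letters only.

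Values are log2 signals computed by GCRMA, running from 2.17 to 15.9, with 33.7% of all values within 0.1 of the lowest. The array labelled sham KO replicate 2 read 9.46 on Ntrk2 probe set 1420838_at, against 3.12 to 4.94 in the other KO arrays and 10.01 to 10.85 in WT arrays, so its genotype label is in doubt. The WT array day 3 replicate 4 carried liver transcripts, with albumin (Alb) at 13.7 against at most 2.20 in every other array. The WT arrays titled day 1 replicates 1 and 2 have source and time fields naming day 7 and sham, but their profiles correlated with the day 1 WT mean at 0.915 and 0.730, against -0.450 with day 7 WT and -0.314 with sham WT, and the titles were followed. Without the array labelled sham KO replicate 2 and day 3 WT replicate 4 together, the counts of the 7 tested genes called below were identical in every comparison but KO day 3 against sham (6 in place of 7, the loss being Serping1). Measures of RNA quality differed with time. The actin 3′ minus 5′ log2 difference had means of 2.02, 1.74, 1.49 and 1.89 in the sham, day 1, day 3 and day 7 arrays. That of Gapdh had means of 0.08, 0.28, 0.25 and 0.43 in the same order, so actin and Gapdh ranked the times differently. The part of RNA quality in the results was not tested.

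Complement transcripts rose strongly after contusion in both genotypes. At an adjusted p under 0.05 (limma, Benjamini-Hochberg over 24573 probe sets), 6 of 7 leading probe sets were higher than sham in KO cords at day 1, where 20.9% of all probe sets were higher. All 7 were higher in KO cords at day 3 (28.2% of all) and at day 7 (19.8%). In WT cords all 7 were higher at day 1 (24.0% of all), day 3 (26.1%) and day 7 (21.8%). The median log2 difference of the 7 in KO cords was 1.29 at day 1, 3.68 at day 3 and 4.07 at day 7, beside -0.04, -0.07 and -0.07 over all probe sets. In WT cords it was 2.06, 3.14 and 3.91, beside -0.04, -0.07 and -0.08. In bulk tissue, more cells of a type and more RNA per cell cannot be told apart.

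**Figure D1:**
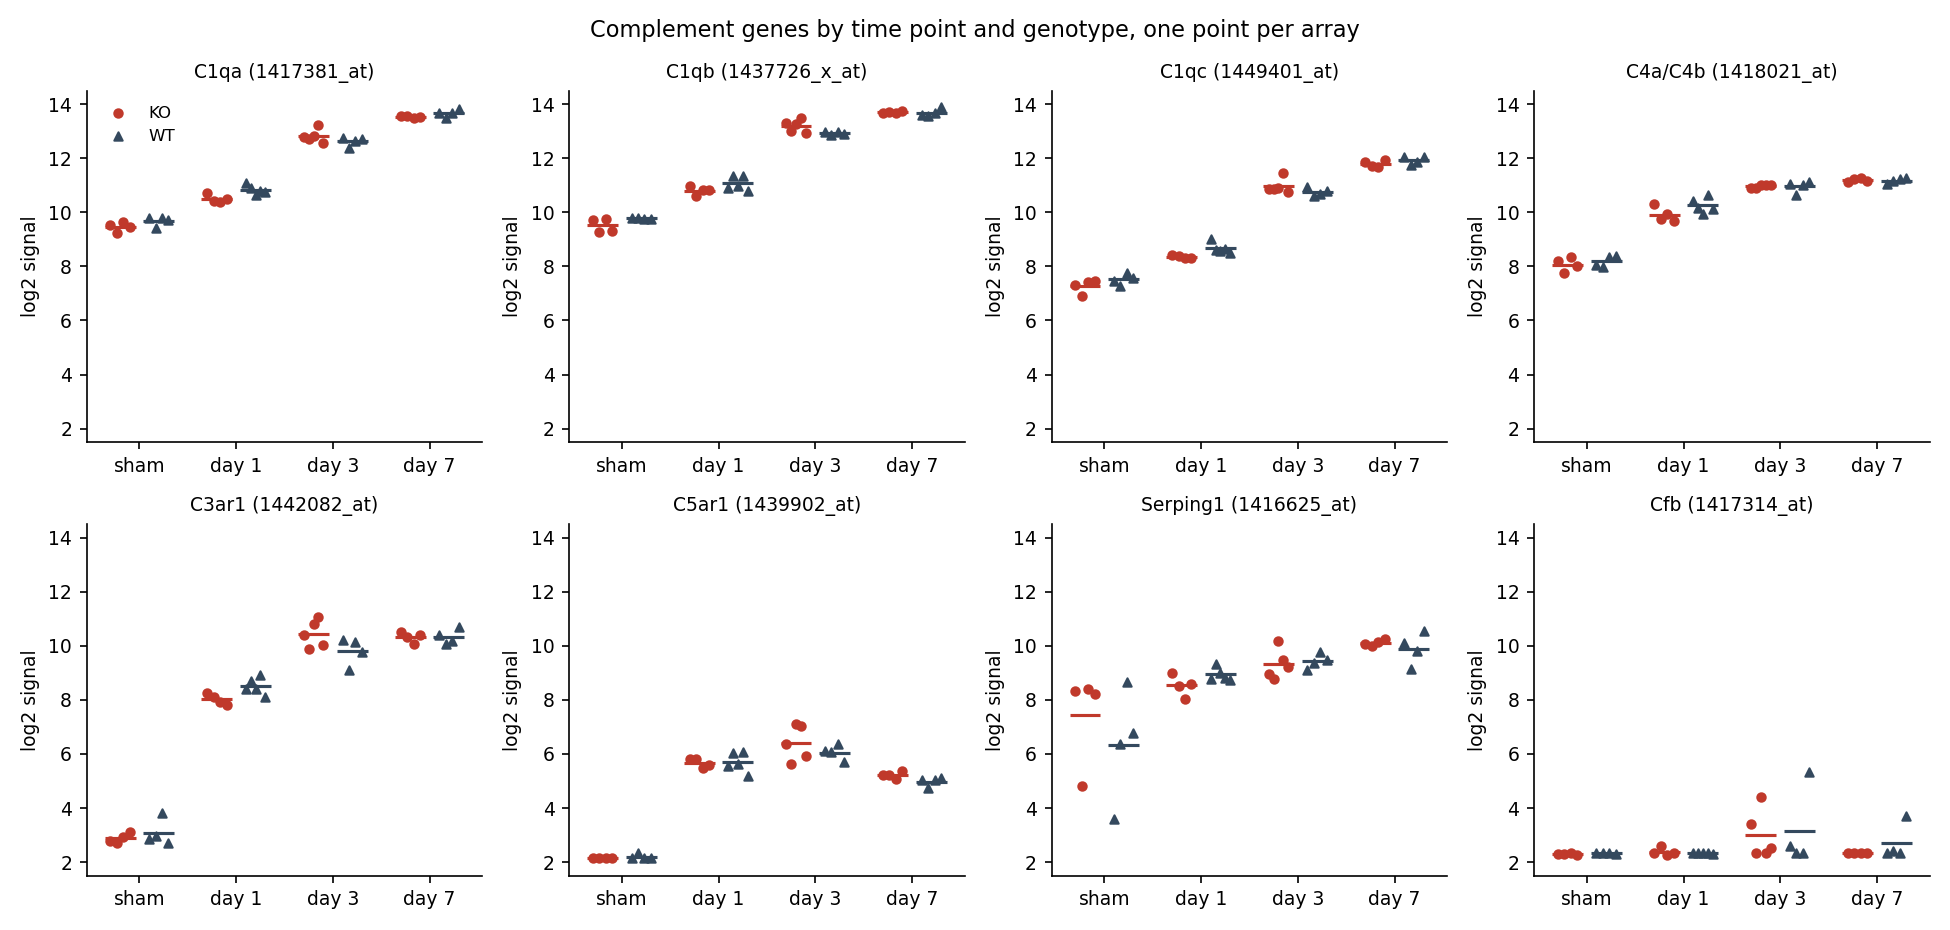
Log2 signal (y axis) of the leading probe set of each of 8 complement genes in every array, by time point (x axis), with KO arrays as circles left of the WT arrays as triangles and the group mean as a line. The 3 C1q genes climb at each step to 11.66 or more at day 7, the receptors C3ar1 and C5ar1 leave the floor at day 1, Serping1 is scattered in sham, and Cfb stays near the floor in most arrays.

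The 3 chains of C1q, the recognition molecule of the classical pathway, climbed at every step. C1qa (1417381_at) read 9.53, 9.22, 9.64 and 9.45 in the KO sham cords, 10.70, 10.43, 10.39 and 10.47 at day 1, 12.78, 12.70, 12.80, 13.21 and 12.55 at day 3, and 13.57, 13.55, 13.49 and 13.51 at day 7. In WT cords it read 9.78, 9.41, 9.80 and 9.72 in sham, 11.08, 10.88, 10.64, 10.78 and 10.74 at day 1, 12.74, 12.38, 12.63 and 12.72 at day 3, and 13.66, 13.48, 13.68 and 13.81 at day 7. Within each genotype, no array of one time point overlapped with those of another. The share of all probe sets that separated by time in this way was not counted, here or for the genes below. The C1qa difference from sham at day 7 was 4.07 ± 0.12 log2 in KO (SE, 16.8-fold, adjusted p = 1.31e-20 by limma) and 3.98 ± 0.12 in WT (15.8-fold, adjusted p = 1.82e-20).

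C1qc (1449401_at) had the largest day 7 difference of the 3 chains, 4.52 ± 0.14 log2 in KO (23.0-fold) and 4.40 ± 0.14 in WT (21.1-fold). Its KO arrays read 7.29, 6.91, 7.41 and 7.46 in sham and 11.85, 11.73, 11.66 and 11.93 at day 7, and its WT arrays 7.46, 7.29, 7.75 and 7.56 in sham and 12.05, 11.73, 11.86 and 12.03 at day 7. C1qb (1437726_x_at), the chain encoded beside C1qc, gained 4.18 ± 0.13 in KO and 3.91 ± 0.13 in WT at day 7. Its other 2 probe sets gave 4.26 and 3.86 in KO and 4.09 and 3.74 in WT, so that all 3 moved alike. At day 1 the gains of C1qa, C1qb and C1qc were still small, 1.04, 1.29 and 1.09 log2 in KO and 1.14, 1.29 and 1.16 in WT.

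The C4a/C4b probe set 1418021_at, reading a component deposited on the target in the classical pathway, made most of its gain by day 1. It read 8.19, 7.74, 8.33 and 8.00 in KO sham cords, 10.31, 9.75, 9.93 and 9.67 at day 1, 10.88, 10.90, 11.002, 10.998 and 11.02 at day 3, and 11.13, 11.21, 11.28 and 11.16 at day 7. The WT cords read 8.04, 7.99, 8.35 and 8.38 in sham, 10.43, 10.16, 9.94, 10.62 and 10.12 at day 1, 11.06, 10.65, 11.01 and 11.13 at day 3, and 11.06, 11.17, 11.21 and 11.25 at day 7. All injured arrays lay above all sham arrays, while the day 3 and day 7 WT arrays overlapped. The differences from sham were 1.85 ± 0.14, 2.90 ± 0.13 and 3.13 ± 0.14 log2 at days 1, 3 and 7 in KO and 2.06 ± 0.13, 2.77 ± 0.14 and 2.98 ± 0.14 in WT, an 8.76-fold rise in KO and 7.90-fold in WT at day 7.

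The receptors for the released fragments had the steepest early rise. C3ar1 (1442082_at), the C3a receptor of myeloid cells, read 2.79, 2.72, 2.91 and 3.10 in KO sham cords and 8.25, 8.10, 7.91 and 7.80 at day 1, and 2.87, 2.96, 3.82 and 2.72 in WT sham cords and 8.40, 8.70, 8.38, 8.90 and 8.11 at day 1. At day 3 the KO arrays read 10.40, 9.87, 10.80, 11.06 and 10.02 and the WT arrays 10.22, 9.09, 10.13 and 9.75, and at day 7 the KO arrays read 10.52, 10.31, 10.08 and 10.41 and the WT arrays 10.41, 10.06, 10.16 and 10.69. Every injured array was far above every sham array. The differences from sham were 5.13 ± 0.25, 7.55 ± 0.24 and 7.45 ± 0.25 in KO and 5.41 ± 0.24, 6.71 ± 0.25 and 7.24 ± 0.25 in WT at days 1, 3 and 7, and since sham was near the lowest values of the array these are lower bounds. The other 2 C3ar1 probe sets rose in the same comparisons, with day 7 means of 9.05 and 8.70 in KO and 9.10 and 8.75 in WT, above sham means of 3.11 and 2.41 in KO and 3.23 and 2.43 in WT.

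C5ar1 (1439902_at), the C5a receptor of neutrophils and macrophages, was the member that peaked early and then receded. It sat at the lowest value, 2.17, in all 4 KO sham arrays and in 3 of 4 WT sham arrays, the fourth reading 2.32. KO arrays read 5.83, 5.81, 5.48 and 5.60 at day 1, 6.36, 5.64, 7.10, 7.03 and 5.91 at day 3, and 5.22, 5.21, 5.06 and 5.39 at day 7. WT arrays read 5.57, 6.03, 5.63, 6.07 and 5.18 at day 1, 6.10, 6.06, 6.36 and 5.69 at day 3, and 5.02, 4.74, 5.03 and 5.13 at day 7. All day 7 arrays were below all day 3 arrays of their genotype, and all injured arrays were above sham. The differences from sham, lower bounds again, were 3.51 ± 0.22, 4.24 ± 0.21 and 3.05 ± 0.22 in KO and 3.49 ± 0.21, 3.84 ± 0.22 and 2.77 ± 0.22 in WT at days 1, 3 and 7. The second C5ar1 probe set, 1422190_at, was at its lowest value in 28 of 34 arrays and carries no usable signal.

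**Figure D2:**
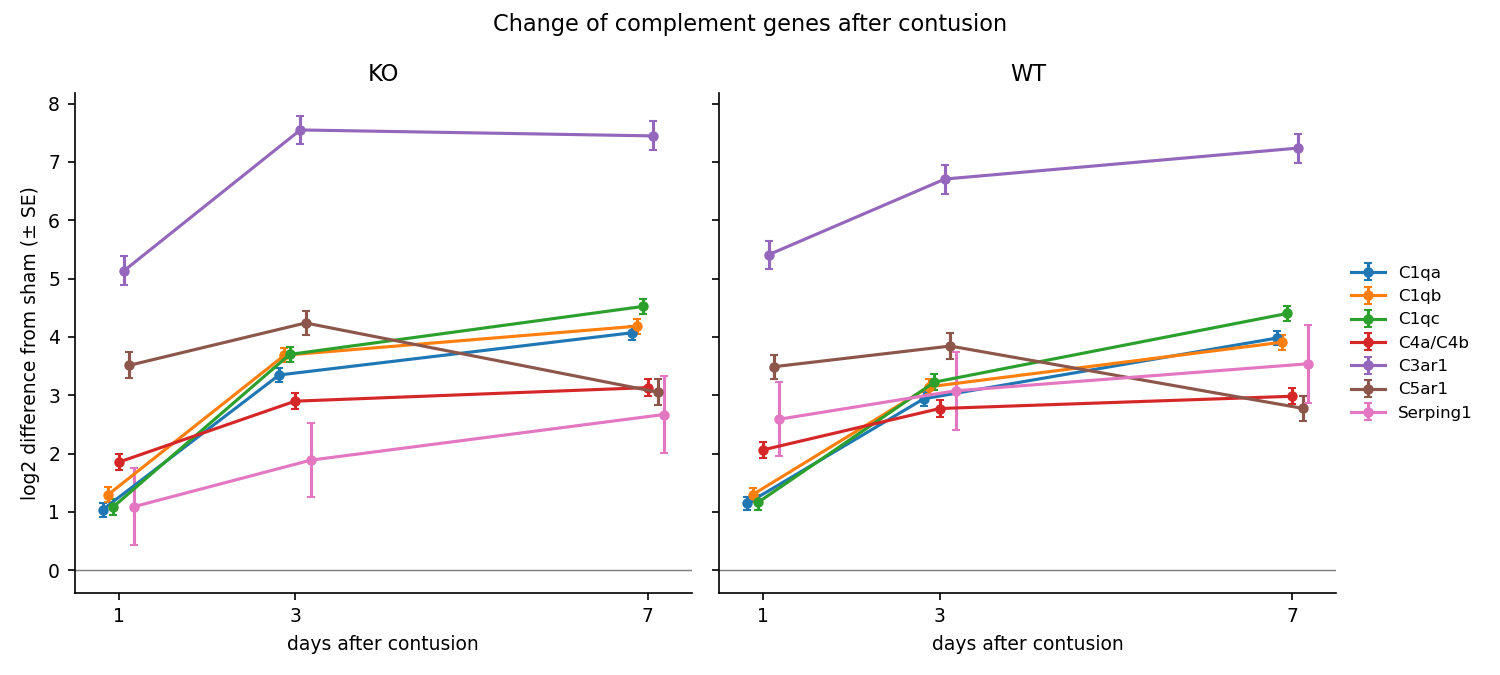
Log2 difference from sham of the same genotype (y axis) at 1, 3 and 7 days after contusion (x axis) for 7 complement genes, KO in the left panel and WT in the right, with bars for ± SE. C3ar1 is uppermost at each time, the C1q lines rise through day 7, C4a/C4b flattens after day 3, and C5ar1 turns down after day 3 in both genotypes.

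Serping1 (1416625_at), the inhibitor of the C1 proteases, had widely scattered sham values. KO sham arrays read 8.33, 4.81, 8.40 and 8.22 and WT sham arrays 3.61, 6.36, 8.65 and 6.78, while day 7 arrays read 10.06, 9.99, 10.14 and 10.25 in KO and 10.09, 9.13, 9.80 and 10.53 in WT. Day 7 arrays were all above their sham arrays, while at day 1 the KO arrays (8.042 to 9.004) overlapped with sham. The differences from sham were 1.09 ± 0.67 (adjusted p = 0.187 by limma), 1.89 ± 0.63 (0.0105) and 2.67 ± 0.67 (0.00171) in KO and 2.59 ± 0.63 (0.00121), 3.08 ± 0.67 (0.000244) and 3.54 ± 0.67 (7.13e-05) in WT. Without the array labelled sham KO replicate 2 the KO differences were 0.21 at day 1, 1.01 at day 3 (adjusted p = 0.121, no longer called) and 1.79 at day 7, and without sham WT replicate 1 the WT day 1 difference was 1.67 (adjusted p = 0.0134). The lowest sham arrays were also lowest for a list of 6 fibroblast genes, whose mean was 8.36, 6.11, 9.03 and 8.81 in the KO sham arrays and 5.96, 8.84, 9.21 and 8.83 in the WT sham arrays, and the part of this in the Serping1 values was not tested.

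Cfb (1417314_at), factor B of the alternative pathway, stayed near the floor. It read 2.28 to 2.59 in all sham and day 1 arrays, 3.43, 2.35, 4.40, 2.35 and 2.54 in day 3 KO, 2.59, 2.35, 2.35 and 5.35 in day 3 WT, at most 2.36 in day 7 KO and at most 3.69 in day 7 WT. The highest value, 5.35, came from the WT array with liver transcripts, and only 2 of 34 arrays exceeded 4, so no change in Cfb could be measured.

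Between day 1 and day 3 the gains continued for most of the set. In KO cords 6 of 7 genes were higher at day 3 than at day 1 (19.4% of all probe sets), from C1qc with 2.61 ± 0.13 to C5ar1 with 0.73 ± 0.21, Serping1 being the exception at 0.80 ± 0.63. The C5ar1 call was lost when no other groups entered the limma fit (adjusted p = 0.0930). In WT cords 5 of 7 were higher (11.7% of all), C1qc with 2.06 ± 0.13 the largest, while C5ar1 (0.35 ± 0.21, adjusted p = 0.213) and Serping1 (0.49 ± 0.63) were not called. From day 3 to day 7 only the C1q genes were higher, 3 of 7 in KO (16.2% of all) and 3 of 7 in WT (8.64% of all). C1qa gained 0.72 ± 0.11, C1qb 0.50 ± 0.12 and C1qc 0.82 ± 0.13 in KO, and 1.04 ± 0.12, 0.76 ± 0.13 and 1.18 ± 0.14 in WT. C5ar1 was the only member that fell over this step, by 1.19 ± 0.21 in KO (14.2% of all probe sets lower, adjusted p = 0.000128) and by 1.07 ± 0.22 in WT (10.5% lower, adjusted p = 0.000908). The C4a/C4b difference was 0.23 ± 0.13 in KO (adjusted p = 0.184, but 0.0412 when no other groups entered the fit) and 0.21 ± 0.14 in WT (0.311). That of C3ar1 was -0.10 ± 0.24 in KO (0.776) and 0.53 ± 0.25 in WT (0.136), and none of these passed the test.

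Monocyte, macrophage and microglial markers moved over the same days, while few neutrophil markers were called. At days 1, 3 and 7, 20.9%, 28.2% and 19.8% of all probe sets were higher than sham in KO, and 24.0%, 26.1% and 21.8% in WT. Of 7 monocyte and macrophage markers, 6, 7 and 6 were higher than sham at days 1, 3 and 7 in KO and all 7 at each time in WT. Their mean log2 signal was 8.08 ± 0.41, 10.65 ± 0.60 and 9.86 ± 0.06 in KO against 3.45 ± 0.27 in sham, and 8.59 ± 0.46, 9.94 ± 0.48 and 9.91 ± 0.41 in WT against 3.63 ± 0.13 (SD over arrays). Of 6 microglial markers, 3 were lower and 0 higher at day 1 in KO and 5 were higher at day 7, while in WT 2 were lower and 1 higher at day 1 and 4 were higher at day 7. At day 1, 23.7% of all probe sets were lower in KO and 28.9% in WT. P2ry12, a marker of resting microglia, averaged 4.32 at day 1, 8.33 at day 3 and 8.83 at day 7 in KO, against 7.79 in sham, and 5.21, 8.19 and 8.77 in WT, against 8.01. The C1q genes were higher than sham at day 1 while P2ry12 was below it. The median day 1 difference of the 6 microglial markers was smaller than that of P2ry12, at -0.71 in KO and -0.31 in WT. Of 6 neutrophil markers, 0, 1 and 1 were higher than sham at days 1, 3 and 7 in KO and 0, 0 and 1 in WT, and none were lower. Their mean log2 signal was 7.94 ± 0.25, 9.24 ± 1.54 and 8.33 ± 0.63 in KO against 7.78 ± 0.77 in sham. In WT it was 7.87 ± 1.37, 8.33 ± 1.37 and 8.81 ± 1.45 against 8.46 ± 1.14. With this scatter, few calls do not show that neutrophil signal was unchanged. T and B cell genes stayed at the floor, with group means of 2.17 to 2.29. How much of the complement signal these cells carried was not tested.

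None of the 7 genes passed the test between KO and WT cords at any time. At the same threshold 0 of 7 genes differed between KO and WT in sham (0.0529% of all probe sets called), on day 1 (0.549%), day 3 (0.0366%) or day 7 (0.0407%), and 0 for the mean of the 4 conditions (0.126%). At an unadjusted p under 0.05 the counts were 0, 5, 2, 0 and 0. The share of all probe sets at that unadjusted threshold was not computed, so these counts stand without a comparison. At day 1 all 7 differences were negative, from -0.49 ± 0.24 for C3ar1 to -0.01 ± 0.21 for C5ar1, with a smallest adjusted p of 0.286 by limma for C1qa (-0.32 ± 0.11). C1qc read 8.41, 8.37, 8.32 and 8.32 in day 1 KO cords against 9.02, 8.62, 8.57, 8.66 and 8.50 in day 1 WT cords. It was the 1 gene of 7 whose day 1 groups did not overlap (2.71% of all probe sets did so with KO lower), and its difference was -0.32 ± 0.13 with adjusted p = 0.399.

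At day 3, 5 of 7 genes had positive differences, led by C3ar1 with 0.63 ± 0.24 (95% interval 0.15 to 1.11, adjusted p = 0.402) and C5ar1 with 0.36 ± 0.21. Without day 3 WT replicate 2 the C3ar1 difference was 0.40, and without day 3 KO replicate 4 the C5ar1 difference was 0.20. At day 7 the intervals of the KO minus WT difference were -0.37 to 0.12 for C1qa, -0.25 to 0.28 for C1qb, -0.40 to 0.15 for C1qc, -0.26 to 0.31 for C4a/C4b, -0.51 to 0.51 for C3ar1 and -0.21 to 0.69 for C5ar1. Serping1 was bounded only loosely, from -1.15 to 1.59. In sham its difference was 1.09 ± 0.67 with adjusted p = 1, with 1.97 when the array labelled sham KO replicate 2 and day 3 WT replicate 4 were left out, and 0.18 when sham WT replicate 1 was left out.

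**Figure D3:**
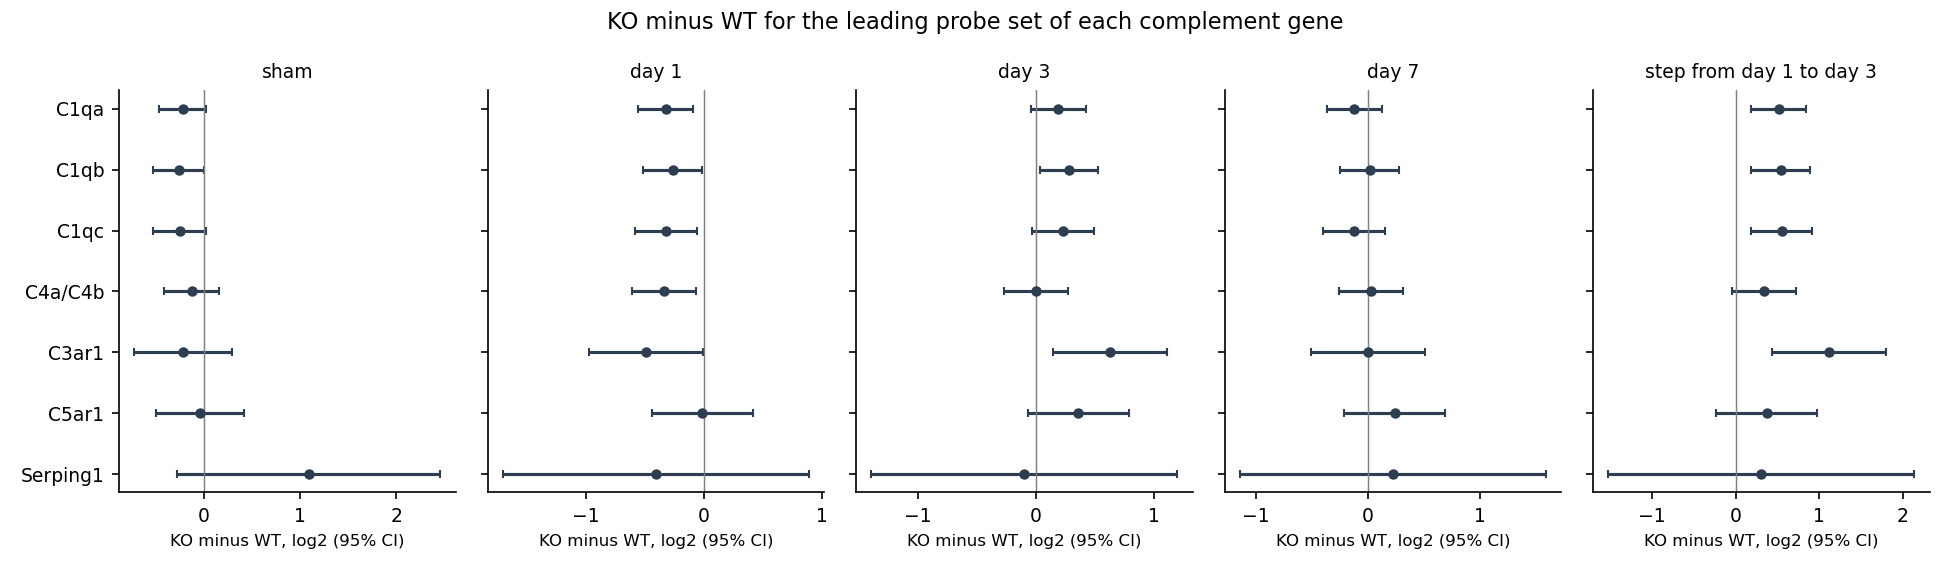
KO minus WT log2 difference (x axis, with 95% interval) of 7 complement genes (rows) in sham, at days 1, 3 and 7, and for the step from day 1 to day 3. All 7 points lie left of 0 at day 1 and all 7 lie right of 0 for the step, no gene passed the adjusted threshold, and Serping1 has the widest intervals. The step is the day 3 difference minus the day 1 difference, so its signs are not independent of those at day 1.

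The response to injury itself was compared between genotypes, as KO change minus WT change. Of 7 genes, 0 were called at day 1 (0.0692% of all probe sets), day 3 (0%) and day 7 (0.00407%), with 0, 4 and 0 at an unadjusted p under 0.05. The share of all probe sets at that unadjusted threshold was again not computed. The day 3 differences ran from -1.19 ± 0.92 for Serping1 to 0.84 ± 0.34 for C3ar1 (adjusted p = 0.748). For the step from day 1 to day 3, where 0.452% of all probe sets were called, all 7 differences were positive and 0 were called. The step holds the day 1 KO minus WT differences with their sign turned, so its signs are no separate observation. C3ar1 climbed by 1.12 ± 0.33 more in KO (95% interval 0.44 to 1.80, adjusted p = 0.143 by limma), C1qa by 0.51 ± 0.16 (0.173), C1qb by 0.54 ± 0.17 (0.179) and C1qc by 0.55 ± 0.18 (0.199). The mean of the monocyte and macrophage list was 8.08 in KO and 8.59 in WT at day 1, and 10.65 in KO and 9.94 in WT at day 3, and 1 of its 7 genes, Ms4a7, was called for the step. The microglial list averaged 6.08 in KO and 6.49 in WT at day 1, and 8.34 in KO and 7.93 in WT at day 3. Day 3 WT replicate 2 was the lowest of its group for both lists, and without it the day 3 WT means were 10.16 and 8.34. The part of cell content in these differences was not tested.

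Arrays of a group tended to stand high or low for several of the genes at once. Day 1 KO replicate 1 was the highest of its group for 7 of 7 genes. Day 7 WT replicate 4 was highest for 6 and replicate 2 lowest for 6, day 3 KO replicate 4 was highest for 4, and the array labelled sham KO replicate 2 was lowest for 6. The 7 genes of 1 array are therefore not separate replicates of a condition.

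The members fell into patterns over the 8 group means, each centred on its own mean. The root mean square distance between C1qa and C1qb was 0.12 log2, between C1qa and C1qc 0.19 and between C1qb and C1qc 0.22, while C4a/C4b and Serping1 were 0.35 apart. The other pairs were 0.63 to 1.87 apart, with C3ar1 and Serping1 the most distant. Among 11969 genes outside the complement lists, Irf8, a transcription factor of the myeloid lineage, was among the 3 nearest to all 3 C1q genes (0.19, 0.15 and 0.22 for C1qa, C1qb and C1qc). The nearest to C4a/C4b was Ly96, the partner of Tlr4 in endotoxin sensing, at 0.19, and the nearest to C3ar1 was the macrophage lectin Lgals3 at 0.32. Srgn, a proteoglycan of leukocyte granules, was nearest to C5ar1 at 0.18. Cmtm3 was nearest to Serping1 at 0.28, and Dcn, a fibroblast matrix gene, was among its 3 nearest at 0.31. These are descriptions over 8 means from shared arrays.

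The rest of the complement system was taken from a list of 52 other genes, of which 43 had a probe set of their own, 23 passed the filter and 20 stayed below it. Of the 23, KO cords had 6 higher and 9 lower than sham at day 1 (20.9% and 23.7% of all probe sets), 9 and 6 at day 3 (28.2% and 36.7%), and 12 and 4 at day 7 (19.8% and 27.4%). WT cords had 7 higher and 5 lower at day 1 (24.0% and 28.9% of all), 9 and 5 at day 3 (26.1% and 35.7%), and 12 and 5 at day 7 (21.8% and 31.7%). Without the array labelled sham KO replicate 2 and day 3 WT replicate 4, the called totals were 13, 16 and 16 in KO and 12, 12 and 17 in WT at days 1, 3 and 7. The median difference was -0.06, 0.04 and 0.44 log2 in KO and 0.00, 0.22 and 0.53 in WT. Of the 8 genes with the largest changes, 4 were receptors. Itgb2 and Itgam, the subunits of complement receptor 3 on microglia and leukocytes, had gained 4.86 ± 0.19 and 3.94 ± 0.16 at day 7 in KO and 4.93 ± 0.19 and 3.69 ± 0.16 in WT. Cd93, a surface protein of endothelial and myeloid cells once described as a C1q receptor, peaked at day 3 with 3.48 ± 0.31 in KO and 4.34 ± 0.32 in WT. A list of 6 endothelial markers had 2, 5 and 1 higher than sham at days 1, 3 and 7 in KO and 6, 6 and 1 in WT. The shares of all probe sets were 20.9%, 28.2% and 19.8% in KO and 24.0%, 26.1% and 21.8% in WT, so the day 7 counts were near them. The mean log2 signal of this list was 6.96, 7.60 and 5.96 in KO, against 6.17 in sham, and 7.05, 7.82 and 6.22 in WT, against 5.69. The part of these markers in the Cd93 values was not tested.

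Itgax and C2 were called at day 7 and at neither earlier time. Itgax, the alpha chain of complement receptor 4, had group means of 2.17 to 2.40 up to day 3 and was 1.64 ± 0.23 above sham at day 7 in KO and 2.19 ± 0.23 in WT. C2, the component that joins C4b in the C3 convertase, was 1.69 ± 0.31 above sham at day 7 in KO and 1.30 ± 0.31 in WT. Itgax passed the filter only through day 7 arrays, with at most 2.79 in the arrays of other times. C2 passed it mostly through day 7 arrays, with means of 3.31 or less in the other groups. The day 7 calls of both were thus partly built into their being tested. C1s1, a C1 protease, was higher from day 3 on, by 1.29 ± 0.44 at day 3 and 1.42 ± 0.46 at day 7 in KO and by 1.15 ± 0.46 and 1.60 ± 0.46 in WT. The soluble collectin Colec10 and the scavenger collectin Colec12 were also called higher from day 3 on in both genotypes, with 2.17 ± 0.27 and 1.39 ± 0.30 at day 3 in KO and 2.51 ± 0.29 and 1.69 ± 0.32 in WT. Their day 7 differences were 3.57 ± 0.29 and 2.52 ± 0.32 in KO and 3.85 ± 0.29 and 2.81 ± 0.32 in WT. At day 1 Colec12 was lower in KO (-0.88 ± 0.32) and Colec10 was higher in WT (0.81 ± 0.27). C1s1 and Colec10 reached a log2 signal of 4 only in day 3 and day 7 arrays, and so passed the filter through these alone. Genes lower than sham at all 3 times in both genotypes were Cfp, the stabiliser of the alternative convertase, and the neural genes Csmd3, Susd4 and Sez6, which carry complement-control domains. A list of 6 neuron markers had 1, 6 and 5 genes lower at days 1, 3 and 7 in KO and 3, 6 and 6 in WT. The shares of all probe sets lower were 23.7%, 36.7% and 27.4% in KO and 28.9%, 35.7% and 31.7% in WT. The part of neuron content in the decreases of these complement genes was not tested.

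**Figure D4:**
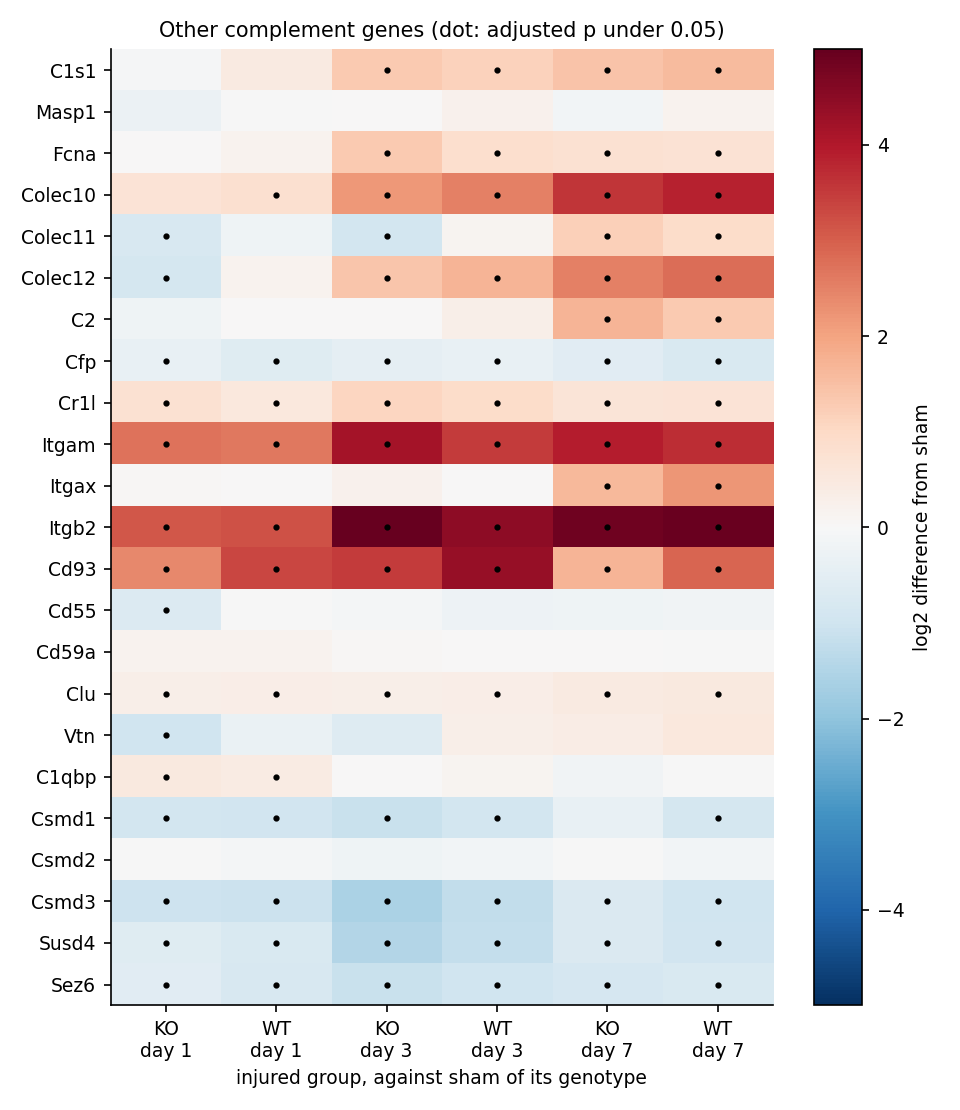
Log2 difference from sham of the same genotype (colour, red higher and blue lower) for 23 other complement genes (rows) in KO and WT cords at days 1, 3 and 7 (columns), with a dot where the adjusted p was under 0.05. Itgb2, Itgam and Cd93 are red from day 1, Colec10 deepens through day 7, Itgax and C2 change only at day 7, and Cfp, Csmd3, Susd4 and Sez6 are blue throughout.

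Cd59a, the membrane inhibitor of the terminal attack complex, was the 1 gene of the 23 that differed between genotypes. On 1418710_at it read 10.18, 9.71, 10.18 and 10.13 in KO sham cords, against 9.21, 9.17, 9.15 and 9.18 in WT sham cords. At day 7 it read 10.14, 10.08, 10.07 and 10.04 in KO, against 9.39, 9.20, 8.99 and 9.10 in WT. No KO array of any time overlapped with a WT array. How many of all probe sets separated in this way was not counted. The KO minus WT difference was 0.87 ± 0.11 in sham cords (adjusted p = 0.000234 by limma), and 0.99 there without the array labelled sham KO replicate 2. It was 0.86 ± 0.11 (1.34e-05) on day 1, 0.91 ± 0.11 (1.80e-05) on day 3 and 0.91 ± 0.11 (6.06e-05) on day 7. The second probe set, 1429830_a_at, gave 0.95, 0.95, 1.09 and 0.92. Injury changed Cd59a in neither genotype by a called amount, with differences from sham of 0.04 to 0.18 in KO and -0.01 to 0.19 in WT. In fits of only the 2 groups compared, the calls in sham (adjusted p = 0.156) and at day 3 (0.471) were lost while the differences stayed as given.

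**Figure D5:**
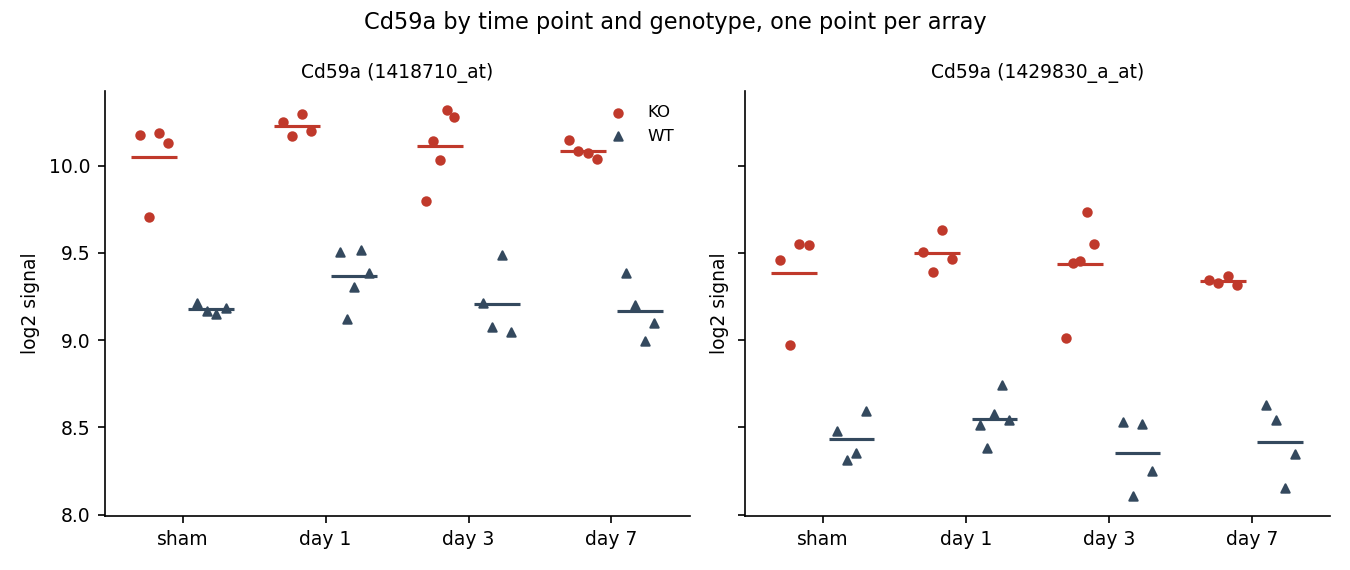
Log2 signal (y axis) of both Cd59a probe sets in every array by time point (x axis), KO circles left of WT triangles, group means as lines. On each probe set every KO array lies above every WT array, and neither genotype shows a step after injury.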

How the data were processed

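The data were 34 Affymetrix arrays of total RNA. The deposited values are log2 signals, per the labels, computed with GCRMA, per the submitters' processing notes (version not stated); genome build and probe positions are not given in the sources used here. Values were used as deposited and arrays grouped by title. GCRMA lifts low values to a floor, so differences near it are lower bounds. Of 45101 probe sets, 64 array controls were left out, and the test covered 24573 whose log2 signal reached 4 in 4 or more arrays. One linear model held the 8 group means and was run in limma 3.58.1 in R 4.3.3 (26 residual and 2.62 prior degrees of freedom), with Benjamini-Hochberg adjustment and a threshold of 0.05. The fit was also run on simulated data, with independent noise and the same spread in every group. The deposited arrays shifted together for several genes and differed in spread, so that run checked the code only. Errors are SE for differences and SD for group means, and the number of arrays limits precision.

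Counts of genes used 1 probe set a gene, that of highest mean signal. Every probe set of the listed genes was named. From the wider list, the 8 genes with the largest injury difference and every gene called between genotypes were named, besides genes lower throughout, which were chosen after their values were seen. Of the 3 genes nearest to each member in pattern, only some are named. The members and lists, cell markers included, were chosen with earlier results of these data known. Alternatives covered the filter, the variance prior, array scaling and weights, the grouping of 2 arrays with conflicting labels, a replicate block, gene means, a fold limit of 1.5, and leaving out each array. Gene names came from the platform annotation.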

Additional observations from a re-analysis of the deposited data

Results flagged for a closer look

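Among 62 sets of 4 or 5 arrays of 1 gene and group, 3 values, from 2 arrays, stood apart from the others by more than Dixon's limit, which chance exceeds in about 1 of 20 sets. C1qc read 11.46 in day 3 KO replicate 4, and 10.75 to 10.90 in the other 4 arrays of that group. Serping1 read 4.81 in the array labelled sham KO replicate 2, and 8.22 to 8.40 in the other 3. Cd59a read 9.71 in that same array, and 10.13 to 10.18 in the other 3, and this is the array whose Ntrk2 signal of 9.46 was near that of WT.

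Complement genes that failed the filter gave signal in the WT array day 3 replicate 4, the one with liver transcripts. Hc, the gene of C5, read 7.39 there, Cfi 7.12, Mbl2 7.06, C9 6.84, C8g 6.59, C8a 6.38, C4bp 6.05 and Cpn2 5.12. In the other arrays these 8 genes did not exceed 2.77. Of 21 complement genes below the filter, 9 stayed under 4 in all arrays.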

How the results depend on the processing

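Leaving out each of the 34 arrays kept the counts of complement genes called at their reported values, except KO day 3 against sham (6 to 7). For the 23 other genes the counts over these fits were 11 to 16, 14 to 16 and 16 to 17 at days 1, 3 and 7 in KO and 11 to 12, 12 to 15 and 16 to 18 in WT. Placing the 2 arrays with conflicting labels by source and time fields gave 3 genes in place of 7 for WT day 1 against sham, 3 in place of 5 for WT day 3 against day 1, and 0 in place of 4 for day 7 against day 3 in both WT and KO, and lost C5ar1 for KO day 3 against day 1 (adjusted p = 0.236). Fits of only the arrays compared called 0 of the 23 other genes between genotypes in sham and 0 at day 3, in place of 1 each, lost the C5ar1 call for KO day 3 against day 1 (0.73, adjusted p = 0.0930) and added one for C4a/C4b in KO day 7 against day 3 (0.23, adjusted p = 0.0412). Replicate numbers did not pair the arrays: of 113 same-numbered pairs 21 correlated above 0.1, and 4 arrays were nearest to their own number. With the replicate block, 4 genes in place of 0 were called for the genotype difference in the day 1 to day 3 step: C1qa 0.60 (adjusted p = 0.0329), C1qb 0.68 (0.0360), C1qc 0.65 (0.0386) and C3ar1 1.32 (0.0405).

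Differences near 0 changed sign. The C4a/C4b KO minus WT difference at day 3 was 0.00 as reported, 0.0062 after quantile normalization, 0.0092 with the replicate block, 0.055 without the 2 arrays that stand apart, and -0.11 to 0.055 leaving out 1 array. The C5ar1 difference at day 1 (-0.01) was 0.015 with equal array medians, 0.0077 after quantile normalization, 0.054 with the conflicting arrays left out or regrouped, and -0.14 to 0.079 leaving out 1 array. Serping1 at day 3 (-0.10) ran from -0.31 to 0.039 leaving out 1 array, and C3ar1 between day 3 and day 7 in KO (-0.10) was 0.085 with array weights and -0.24 to 0.056 leaving out 1 array. Serping1 in KO at day 3 was 1.41 with array weights (adjusted p = 0.0836). The causes were not tested. Of 1932 alternative values for injury against sham, 1925 kept direction and call. For the steps between time points 1273 of 1288 did so, and for the genotype differences 1218 of 1242. Most of these fits left out 1 array, often one outside the comparison, where the difference could not change. The tallies are therefore no measure of stability. The removal of both arrays that stand apart was chosen after seeing the data.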
